A study of Mus musculus with 8 samples.

Results

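Distal sites of the histone mark H3K27me3 on chromosomes 8 and 11 of mouse embryonic stem cells (mESCs) were examined in 2 control and 2 morphine-treated ChIP-Seq libraries. A site was a stretch of the genome covered by overlapping or touching peaks, with at least 1 peak of each of the 4 libraries, that lay more than 1 kb from the 5′ end of every named locus of the RNA-Seq count table. Merging the peaks of the 4 libraries gave 19460 regions, of which 5417 held a peak of every library and 2863 of those were distal. On chromosome 8 there were 271 such sites and on chromosome 11 there were 364, together 635 of the 2819 on the 19 autosomes. The sites were chosen by the presence of a peak in each library and by position, and the 2 chromosomes by their counts of such sites in these same libraries, so the density of shared distal sites on them is a description and carries no test.

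The cells were PCEMM08, a feeder-free mESC line carrying a green fluorescent protein gene under the Oct4 promoter, grown in all libraries with leukaemia inhibitory factor and a pair of kinase inhibitors. The treated cultures received 10 µM morphine, an opioid, for 24 h, and the control cultures received sodium chloride vehicle for the same time. Each condition had 2 ChIP-Seq and 2 RNA-Seq libraries. All libraries came from 1 line, so the values describe that line. In the RNA-Seq libraries the 8 stem cell markers were all detected, from Dppa3 at -0.06 to 0.53 log2 CPM per kb (CPM, counts scaled to the size of the library), to Pou5f1 (Oct4) at 9.33 to 9.68. The mesoderm markers T and Mesp1 and the trophoblast markers Cdx2 and Elf5 had at most 9 reads in any library at the locus examined, and the fibroblast marker Col3a1 had at most 1. The neural marker Tubb3 was detected at 5.89 to 6.07 in every library, and 3 of 3 neural, 3 of 4 endoderm and 2 of 3 fibroblast markers passed the count filter. Of all these markers 0 changed with morphine at an adjusted p of 0.05 (edgeR), and their part in the results was not tested. At an unadjusted p under 0.05 (edgeR) there were 3 stem cell markers and 0 of the others. Such a p came with 229 of the 1137 loci of chromosome 8 that passed that filter and 378 of 1636 of chromosome 11. The peak lists held 10305 peaks for control replicate 1, 13778 for control replicate 2, 8681 for morphine replicate 1 and 12282 for morphine replicate 2, an order kept wherever 4 values are given, and the RNA-Seq libraries held 25081266 to 29531096 counts.

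H3K27me3, trimethylation of lysine 27 of histone H3, is written by Polycomb repressive complex 2, whose core subunits are Ezh2 (or its relative Ezh1), Eed and Suz12. In embryonic stem cells it is best known at the CpG-rich promoters of silent developmental regulators, and it also spreads at lower levels over broad stretches of intergenic and inactive sequence. Chromosomes 8 and 11 are known to be gained recurrently in cultures of mouse embryonic stem cells. Copy number was not measured in this series.

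The sequence under the sites ranged from CpG-rich to CpG-poor. The stretches that follow are the 150 bases with the most CpG dinucleotides, outside annotated exons, in the site of each chromosome with the highest scores, the widest site and the site of median score. They are shown as examples, and the bases are from the plus strand of GRCm38 with each CpG in capitals. Over the whole site, CpG per 100 bp was 1.38 at the strongest and 0.70 at the widest site of chromosome 8. On chromosome 11 the values were 0.90 and 2.25, in the other order.
chr8 strongest: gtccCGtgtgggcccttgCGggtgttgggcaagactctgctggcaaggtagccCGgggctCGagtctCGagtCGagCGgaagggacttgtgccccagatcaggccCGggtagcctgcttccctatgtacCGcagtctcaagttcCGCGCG
chr8 widest: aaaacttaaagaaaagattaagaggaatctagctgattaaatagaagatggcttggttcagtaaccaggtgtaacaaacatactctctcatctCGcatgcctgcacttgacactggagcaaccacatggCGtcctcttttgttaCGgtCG
chr8 typical: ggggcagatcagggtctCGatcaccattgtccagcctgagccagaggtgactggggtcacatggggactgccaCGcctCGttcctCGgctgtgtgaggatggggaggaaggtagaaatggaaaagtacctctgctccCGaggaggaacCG
chr11 strongest: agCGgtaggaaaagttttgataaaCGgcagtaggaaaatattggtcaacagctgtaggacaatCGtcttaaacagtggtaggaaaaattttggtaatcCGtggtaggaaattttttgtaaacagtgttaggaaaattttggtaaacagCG
chr11 widest: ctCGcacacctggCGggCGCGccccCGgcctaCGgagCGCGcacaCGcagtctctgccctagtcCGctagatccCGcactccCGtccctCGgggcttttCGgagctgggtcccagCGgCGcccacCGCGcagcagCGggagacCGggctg
chr11 typical: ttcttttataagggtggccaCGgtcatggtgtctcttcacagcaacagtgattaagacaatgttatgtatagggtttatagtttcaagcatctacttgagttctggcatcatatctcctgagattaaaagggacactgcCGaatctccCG
The window from the widest site of chromosome 11, chr11:74590187-74590336 inside Rap1gap2, held 20 CpG and 74.7% G and C. The whole of that site was 50.9% G and C, and it overlapped a start site annotated by GENCODE. The window from the widest site of chromosome 8, chr8:41225127-41225276 near Fgl1, held 4 CpG. The window from the strongest site of chromosome 8, chr8:41232244-41232393 near Pcm1, held 12, and that from the strongest of chromosome 11, chr11:34682265-34682414 in an intron of Dock2, held 5 within short units that recur along the site. The windows from the sites of median score, chr8:120075007-120075156 near Zdhhc7 and chr11:48686995-48687144 near Rack1, held 6 and 3.

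Shared distal sites were denser on chromosomes 8 and 11 than on any other autosome. There were 2.09 sites per Mb on chromosome 8 and 2.98 on chromosome 11, against 0.988 over the other 17 autosomes, whose densities ran from 0.794 to 1.34 per Mb (highest on chromosome 17). The density relative to the other autosomes was 2.12 on chromosome 8 (95% interval 1.87 to 2.41, from the Wilson interval of the share of sites) and 3.02 on chromosome 11 (2.70 to 3.37). These intervals, like those given later for shares, cover counting error only. The 2 chromosomes held 9.61% and 12.9% of the sites of all autosomes.

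**Figure D1:**
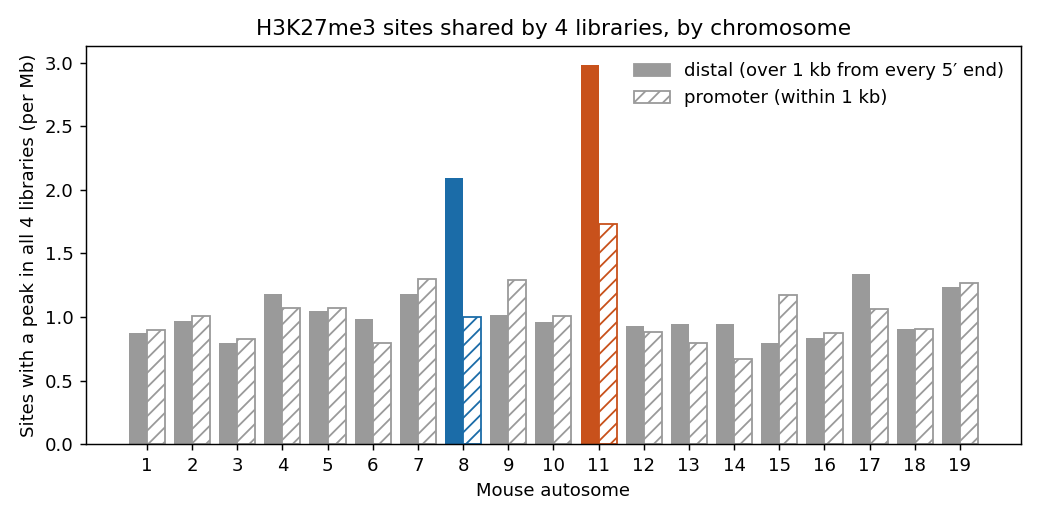
Sites with a peak in all 4 libraries per Mb of each autosome, distal (filled bars) and promoter, within 1 kb of a 5′ end (hatched bars). The distal bars of chromosomes 8 and 11 (coloured) reach 2.09 and 2.98 per Mb and the highest other distal bar 1.34, while the promoter bar of chromosome 8, at 0.997, lies within the range of the other chromosomes.

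Distal regions that the choice of sites did not use also had chromosomes 8 and 11 on top. Those with a peak in only 1 library were 2.47 times as dense on chromosome 8 (2.28 to 2.67) and 2.35 times on chromosome 11 (2.17 to 2.55). The ratios were 2.98 and 2.56 for distal regions with peaks in 2 libraries and 3.10 and 3.19 for those with peaks in 3. Chromosomes 8 and 11 held the top 2 ranks among the 19 autosomes in each of these 3 classes, with chromosome 8 first for regions in 1 or 2 libraries and chromosome 11 first for those in 3. The regions come from the same libraries as the sites, so they are not an independent sample of cells.

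Shared promoter sites separated the chromosomes, while promoter regions in 1 library did not. Shared promoter sites numbered 129 on chromosome 8, 1.01 times the density of the other autosomes (0.848 to 1.21), which was rank 11 of 19. On chromosome 11 there were 211, or 1.76 times (1.52 to 2.02), the highest of the 19. Promoter regions with a peak in only 1 library were 1.81 times as dense on chromosome 8 (1.45 to 2.25) and 2.20 times on chromosome 11 (1.79 to 2.71), again ranks 2 and 1. The ratios were 1.09 and 2.34 for promoter regions with peaks in 2 libraries and 1.28 and 1.86 for those with peaks in 3. Chromosome 11 also held 1.35 times as many named loci per Mb as the other autosomes (1.29 to 1.40) and chromosome 8 held 0.893 times (0.852 to 0.937). Per named locus the ratio of shared distal sites was 2.37 on chromosome 8 and 2.24 on chromosome 11, which turns the order of the 2 chromosomes.

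**Figure D2:**
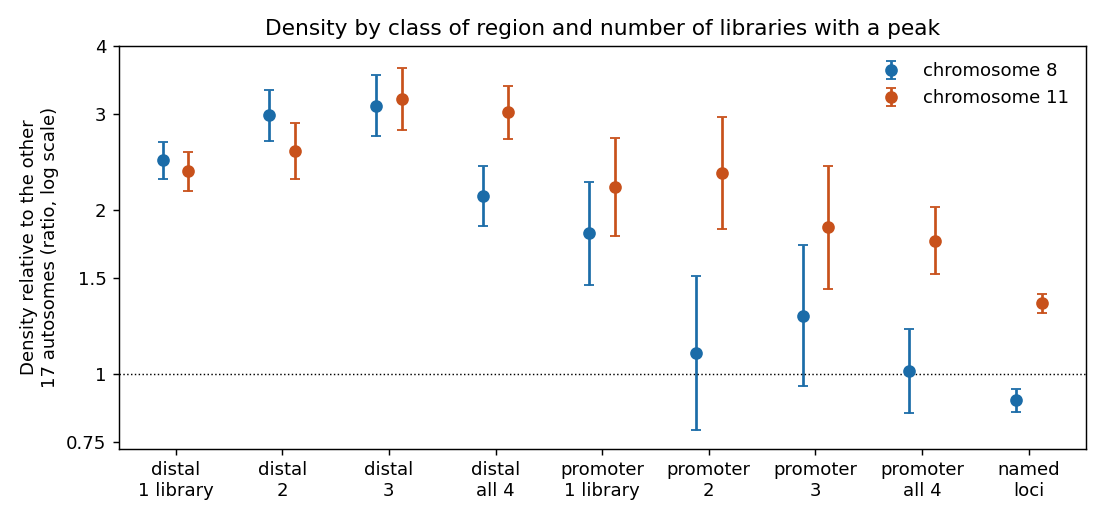
Density on chromosome 8 (blue) and chromosome 11 (orange) relative to the other 17 autosomes, on a log scale, for distal and promoter regions by the number of libraries with a peak and for named loci, with 95% counting intervals. Every distal class lies above 2 on both chromosomes, and shared promoter sites of chromosome 8 lie at 1.01.

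The counts of each library on its own include the peaks of the shared sites that picked the 2 chromosomes, so they are a description and not a separate check. Among all distal peaks of a library, shared or not, the density ratio of chromosome 8 was 2.44 in control replicate 1, 2.54 in control replicate 2, 2.38 in morphine replicate 1 and 2.69 in morphine replicate 2. The ratios of chromosome 11 were 2.81, 2.67, 3.15 and 2.79. The peaks of each library were also split by score into 4 classes of equal size. In the weakest class the ratio of chromosome 8 was 2.80, 2.64, 2.85 and 2.89, and in the strongest class it was 1.73, 1.85, 1.92 and 2.01, lower in 4 of 4 libraries. On chromosome 11 the weakest class gave 2.87 to 3.63 and the strongest 2.39 to 2.64, again lower in each library.

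The sites were spread along both chromosomes rather than held in 1 block. Each of the 12 full 10-Mb windows of chromosome 8 held 11 to 32 sites (median 19), and each of the 12 of chromosome 11 held 10 to 48 (median 29). The 215 windows of the other autosomes held 0 to 33 (median 9). All 24 windows were thus above the median of the other autosomes, and 5 windows of chromosome 11 but 0 of chromosome 8 were above their highest value. The densest window of chromosome 8 ran from 80000001 to 90000000 and that of chromosome 11 from 100000001 to 110000000. The share of sites with another shared distal site within 50 kb, which follows from the same counts, was 31.4% on chromosome 8 and 38.7% on chromosome 11, against 20.3% elsewhere.

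**Figure D3:**
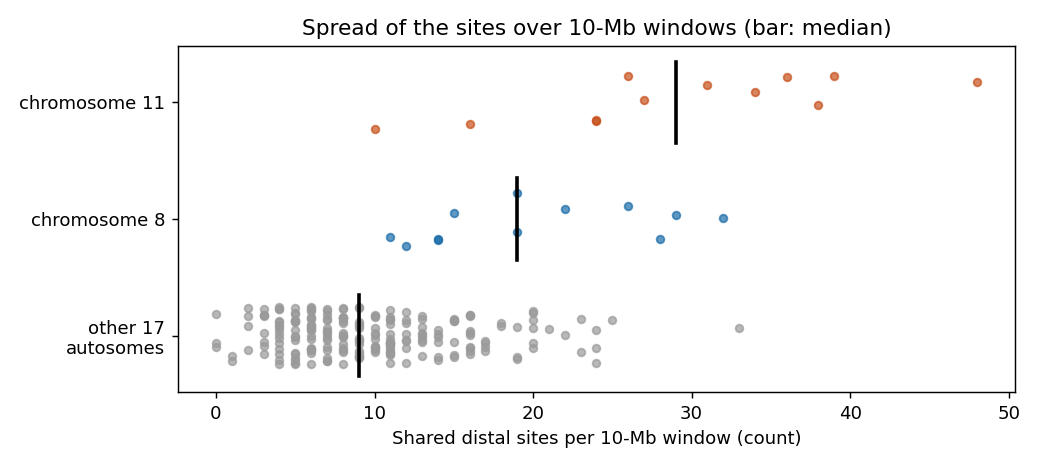
Number of shared distal sites in each full 10-Mb window (points), with the median as a bar. The medians were 9 for the 215 windows of the other autosomes, 19 for chromosome 8 and 29 for chromosome 11, and every window of chromosomes 8 and 11 held at least 10 sites.

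Peaks at these sites were wider, but no stronger, than peaks at shared distal sites elsewhere. The median width on chromosome 8 was 3252, 3633, 3190 and 3536 bp in the 4 libraries. On chromosome 11 it was 3204, 3586.5, 3166 and 3480 bp, and on the other autosomes 2927, 3249, 2862 and 3129.5 bp. The gap was in the same direction in 4 of 4 libraries, 0.15 ± 0.01 on the log2 scale (SD, n = 4), or 11.04% wider. The score of a peak, 10 times the negative log10 of its p-value, was turned into a percentile within its own library because the peak lists do not give the read depth of each library. The median percentile differed by -4.25 ± 1.89 points between chromosomes 8 and 11 and the others (SD, n = 4), lower in 4 of 4 libraries. The lowest of the 4 percentiles of a site had a median of 40.3 on chromosomes 8 and 11 and 46.1 elsewhere. Among peaks with a score of at least 100 the difference in percentile was -1.43 points, and 171 sites were left.

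**Figure D4:**
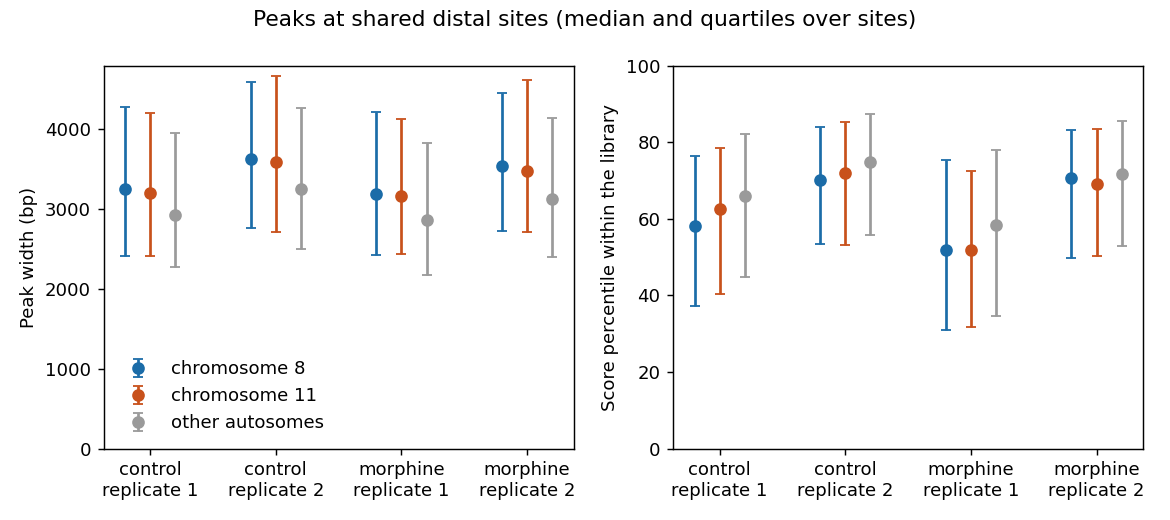
Peak width in bp (left) and score percentile within the library (right) at the shared distal sites of chromosome 8, chromosome 11 and the other autosomes, per library, as medians with quartiles over sites. In every library the chromosome 8 and 11 medians of width lie above the grey point, those of the percentile below it, and the quartiles overlap.

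By gene context the sites were mostly intergenic. On chromosomes 8 and 11 together 411 sites (64.7%, Wilson interval 60.9 to 68.3%) touched no named locus, 145 (22.8%) touched an exon and 79 (12.4%) only an intron. Elsewhere 60.2% touched no named locus (58.1 to 62.2%). The distance to the nearest 5′ end had a median of 27953 bp on chromosome 8, 17030.5 bp on chromosome 11 and 21501.5 bp on the other autosomes. Sites more than 100 kb from every 5′ end were 21.4% on chromosome 8 (16.9 to 26.7%) and 10.99% on chromosome 11 (8.17 to 14.6%), against 14.1% elsewhere (12.7 to 15.6%), so more of the sites of chromosome 8 lay far out than of those of chromosome 11. Because a locus of the count table has a single 5′ end, an inner start of a gene counts as distal, and 86 of the 635 sites (13.5%) lay within 1 kb of a start site annotated by GENCODE, compared with 18.9% elsewhere.

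In base content the sites resembled the others apart from fewer CpG. GC content had a median of 44.6% on chromosomes 8 and 11 and 44.8% elsewhere, and the difference turned to 0.30 points with scores of at least 100. The median number of CpG per 100 bp was 1.05 on both chromosomes together and 1.29 elsewhere, with quartiles of 0.672 to 1.63 and 0.665 to 1.90 that overlap widely. Soft-masked (repeat) sequence made up 24.6% of the median site and 22.5% elsewhere. A word of 12 bases recurring at least 20 times in the site, a mark of tandem repeats, was present in 25.2% of the sites (22.0 to 28.7%) and in 21.9% elsewhere (20.2 to 23.7%). That count was not scaled to the width of the merged site, whose median was 3993 bp on chromosomes 8 and 11 and 3673.5 bp elsewhere.

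The strength of a site was ranked by the lowest of its 4 percentiles. The strongest sites on chromosome 11 were in introns of Dock2, an activator of the small GTPase Rac in blood cells. The site chr11:34681359-34685391 scored 1522, 2204, 940 and 1552, and the site chr11:34542183-34545411 scored 1091, 1222, 944 and 1233. At both sites the lowest percentile over the 4 libraries was 99.8, and the scores of the conditions overlapped at both. The peak at the first site was 2903 and 2935 bp wide in the controls and 4026 and 3578 bp with morphine, which do not overlap, and that at the second was 2910, 3225, 2821 and 3136 bp wide. The commonest word of 12 bases occurred 21 times in the first site and 27 times in the second, against a median of 11 over all 635 sites, and Dock2 RNA was low, at 2.21 to 2.73 CPM for the locus of the gene that holds both sites. Next was chr11:109010346-109014815, 89997 bp from the 5′ end of Axin2, a feedback inhibitor of Wnt signalling, with scores of 648, 526, 687 and 650. After it came chr11:107047940-107051684 in an intron of Bptf, a subunit of the NURF chromatin remodelling complex, which was 89.3% repeat sequence and held 1 word of 12 bases 53 times.

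On chromosome 8 the strongest site was chr8:41232079-41236072, 3687 bp from the 5′ end of Pcm1, which encodes a protein of the centriolar satellites. Its scores were 443, 609, 401 and 494, so the conditions overlap. The site next in strength, chr8:15518864-15521016, was 2153 bp wide and intergenic, with scores of 451, 365, 450 and 447. An unnamed RNA locus, MSTRG.15833 (chr8:15519775-15520125), lies inside it. That locus is taken up again with the RNA results.

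None of the 5 widest sites of either chromosome was among its 5 strongest. On chromosome 8 they included chr8:41218736-41226888, 8153 bp wide and 3580 bp from the 5′ end of Fgl1, a secreted liver protein, and chr8:48735695-48743830 upstream of Tenm3, a teneurin adhesion protein of the nervous system. The widest on chromosome 11 was chr11:74586022-74594197, 8176 bp, across an exon of Rap1gap2, a regulator of the GTPase Rap, and then chr11:75232099-75240011 in an intron of Rtn4rl1, a Nogo receptor relative. The lowest percentiles of the 5 widest sites of each chromosome ran from 4.97 at the site in Pmfbp1 to 79.1 at the site near Ankle1. They were 8.26 at the Rtn4rl1 site, 48.3 at the Rap1gap2 site and 70.9 at the Fgl1 site. The widths of the Rap1gap2 peak were 7544, 7464, 7459 and 8007 bp, so the conditions overlap. Other wide sites crossed an exon of Kbtbd11 (chr8:15023855-15031771, with 3.73 CpG per 100 bp) and an intron of a merged locus that carries 2 gene names, 1 of them Phospho1, a phosphatase of bone mineralisation (chr11:95792032-95799788, with 1 word of 12 bases repeated 63 times). Among the 5 widest of each chromosome, the sites at Rap1gap2, Kbtbd11, Myl4 and Mir152 overlapped a start site annotated by GENCODE. The Fgl1 site lay 597 bp from such a start.

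Some genes held several sites in their bodies. Zfp423, a zinc finger transcription factor of neural and fat precursors, Palld, an actin-binding protein, and Csgalnact1, an enzyme of chondroitin sulphate synthesis, held 3 each on chromosome 8. Tenm2, another teneurin, Kcnip1, a potassium channel subunit, and the transcript AK079763 held 3 each on chromosome 11, counted over all loci of a gene. Levels of these genes were unequal: Zfp423 stood at 3.58 to 3.76 and Palld at 3.75 to 3.92 log2 CPM per kb in the 4 libraries, whereas Csgalnact1 and AK079763 had at most 9 reads in any library and did not pass the count filter. Tenm2 and Kcnip1 have 4 loci each in the table, of which the 1 examined had at most 3 reads in any library.

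The limit of 1 kb cut through a continuous range of distances. The nearest sites kept were chr8:106407538-106412150 at 1009 bp (AK020829), chr11:70161764-70165593 at 1030 bp (Clec10a) and chr11:121443703-121450786 at 1163 bp (Tbcd). The nearest left out lay 870 bp from Bbs2, 849 bp from an alanine tRNA locus and 841 bp from Pisd-ps1.

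Morphine was compared with control at the sites first by peak width, since presence in every library was fixed by the choice of sites. The median width fell by 0.03 on the log2 scale, from 11.74 ± 0.11 to 11.70 ± 0.10 (SD, n = 2 each), a difference smaller than the SD within either condition. An exact permutation over the libraries gave a two-sided p of 0.667, where 2 against 2 libraries cannot go below 0.33. The direction turned without control replicate 2 (0.05), without morphine replicate 1 (0.05), with scores of at least 100 (0.050) and relative to the other autosomes (0.012). Of the 635 sites, 96 (15.1%) were wider in both morphine libraries than in both controls and 105 (16.5%) were narrower. Over all 2819 autosomal sites 12.9% were wider and 18.9% narrower. Over both chromosomes these shares are near that background. On chromosome 8 there were 42 wider sites (15.5%) and 36 narrower ones (13.3%, Wilson interval 9.75 to 17.8%), and on chromosome 11 there were 54 wider (14.8%) and 69 narrower (18.96%, 15.3 to 23.3%).

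A site in an exon of Kdm6b, an H3K27 demethylase, had the most CpG of all sites, 5.64 per 100 bp, and was picked out after its values were seen. It lies at chr11:69409561-69411422 and its peak was 1455, 1361, 1826 and 1862 bp wide, so it is among the sites that did not overlap. Kdm6b RNA was at 92.7 and 83.9 CPM in the controls and 93.4 and 93.0 with morphine, a log2 change of 0.08 ± 0.06 (SE) that did not pass the test (edgeR quasi-likelihood test, Benjamini-Hochberg adjusted p = 0.493).

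The share of a library's distal peaks that lay on chromosomes 8 and 11 was the second measure. It was 22.95%, 22.86%, 23.84% and 23.75% in the 4 libraries. Both morphine libraries were above both controls, by 0.88 percentage points between the means, with an SD of 0.06 in each condition (n = 2; exact permutation over the libraries, two-sided p = 0.333). No smaller p can be had with these libraries. The Wilson intervals of the single shares overlapped, from 22.0 to 24.0%, 22.0 to 23.7%, 22.68 to 25.03% and 22.8 to 24.7%. Among peaks with a score of at least 100 the difference was -0.28 points.

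RNA of the loci on chromosomes 8 and 11 was examined as a check of extra copies, for which the series has no library of known karyotype. Over the tested loci, those that passed the count filter, the median level of chromosome 11 was above that of the other 17 autosomes by 0.47, 0.47, 0.49 and 0.47 log2 CPM per kb, a mean of 0.48 ± 0.01 (SD, n = 4). It was the highest of the 19 autosomes. Chromosome 8 was above by 0.22, 0.19, 0.26 and 0.22, a mean of 0.22 ± 0.03 (SD, n = 4) and rank 7. The other autosomes ran from -0.28 (chromosome 7) to 0.35 (chromosome 15), with an SD of 0.24 between chromosomes, so chromosome 8 lay inside their range and chromosome 11 above it. Without division by length chromosome 11, at 0.48, was rank 2 and inside the range of the others, whose highest value was 0.55.

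**Figure D5:**
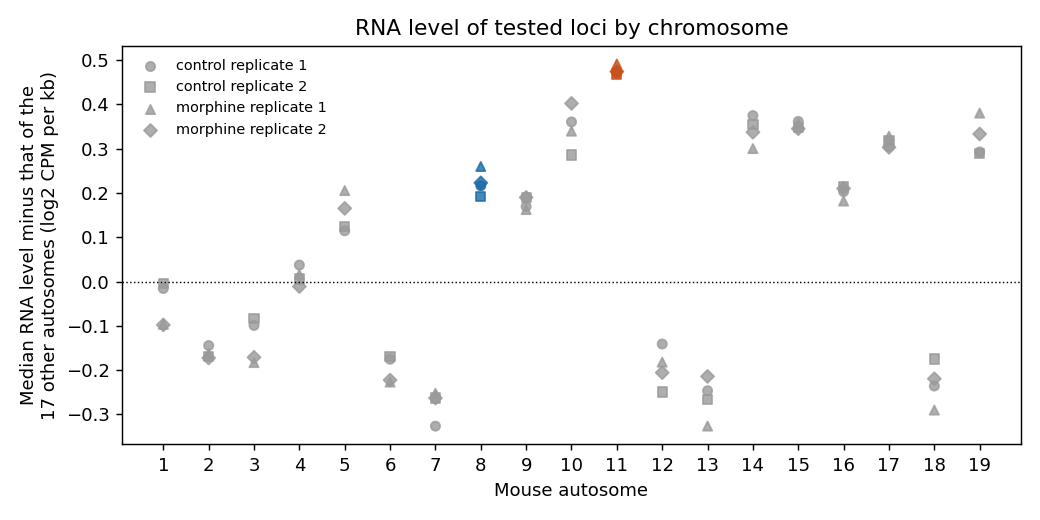
Median RNA level of the tested loci of each autosome minus that of the 17 autosomes other than 8 and 11, in log2 CPM per kb, with 1 point per library. Chromosome 11 (orange) lies highest, at 0.47 to 0.49, and chromosome 8 (blue), at 0.19 to 0.26, lies among the others.

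The place of chromosome 8 depended on which loci were counted. With loci of any count it was 0.80 above the others and first of 19, with chromosome 11 second at 0.69 and the highest other autosome at 0.56. With named loci only, chromosome 8 was first at 0.57 and chromosome 11 second at 0.52, against at most 0.47 elsewhere. Unnamed loci made up 10.5% of the table on chromosome 8, 7.70% on chromosome 11 and 7.82% on the other autosomes. The share of loci that passed the count filter was also highest on these chromosomes, 59.4% on chromosome 11 and 56.9% on chromosome 8, with 38.3 to 55.9% on the others. A rise from 2 to 3 copies would be 0.58 on this scale if RNA followed copy number. Chromosomes hold different genes, and the part of copy number in these levels and in the density of the sites was not tested.

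The level of loci at the sites was set beside that of the rest of their chromosomes. Of 706 loci that overlapped a site or had the nearest 5′ end, 418 passed the count filter. Their median level was 1.41, 1.44, 1.49 and 1.46 log2 CPM per kb, while the 2355 other tested loci of the chromosomes had 2.32, 2.22, 2.28 and 2.25. The difference was -0.90 to -0.78 over the 4 libraries, with quartiles that overlap widely (-0.98 to 3.72 and 0.11 to 4.35 in control replicate 1). Taken once per site and over named loci only, the locus with the nearest 5′ end had a median level of 2.40 over the 361 sites where it was tested and of 1.87 over 1256 sites elsewhere. The 2 measures differ in how loci are assigned, in how often a locus counts and in whether unnamed loci enter, so no direction is read from them together. In bulk RNA, fewer cells with a transcript and less of it per cell cannot be told apart.

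With morphine, few loci of either chromosome changed. Of the 20350 loci tested genome-wide, 1.52% passed an adjusted p of 0.05, 0.614% higher and 0.904% lower. On chromosome 8 there were 20 of 1137 (1.76%), 14 higher and 6 lower, and on chromosome 11 28 of 1636 (1.71%), 10 higher and 18 lower. At the sites 8 of the 418 tested loci passed (1.91%, Wilson interval 0.973 to 3.73%), 2 higher and 6 lower, which is near the background. The median log2 change was 0.02 on chromosome 8, 0.04 on chromosome 11 and 0.03 at the sites, against 0.00 over all tested loci. An unadjusted p under 0.05 (edgeR) was had by 229 of the tested loci of chromosome 8, 378 of chromosome 11 and 95 at the sites. Without morphine replicate 1 there was 1 call on each chromosome and 0 at the sites (edgeR), where 47 loci had an unadjusted p under 0.05, and 0.0613% of all loci were called. Without control replicate 2 there were 89 calls on chromosome 8, 148 on chromosome 11 and 39 at the sites, with 7.67% of all loci called. Without morphine replicate 2 there were 37, 43 and 12, with 2.85% of all loci called. With trends in length and GC content removed 7 were called on chromosome 8 and 9 on chromosome 11, and the 3 at the sites were all higher, with 0.393% of all loci called. In squared count differences per locus, scaled so that counting error alone gives about 1, control replicate 2 was closer to morphine replicate 2 (3.83) than to control replicate 1 (5.75) by the mean over loci, to which that scale applies. By the median over loci, for which counting error alone gives less than 1, the order was the other way (0.998 and 0.923).

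The 2 loci at sites that rose were Myom2 and Rnf145. Myom2, a protein of the M band of muscle sarcomeres whose 5′ end is the nearest named one to the strong intergenic site chr8:15518864-15521016, at 461211 bp, and which has another site at 25882 bp, stood at 33.1, 34.2, 44.3 and 44.3 CPM. Both morphine values were above both controls, a log2 change of 0.40 ± 0.06 (SE; edgeR adjusted p = 0.0167). Rnf145, a membrane ubiquitin ligase with a site 15012 bp away, went from 75.2 and 76.2 CPM to 90.1 and 97.4, a log2 change of 0.31 ± 0.06 (adjusted p = 0.0316). The call of Rnf145 was also lost without morphine replicate 2 (log2 change 0.25).

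Of the 6 that fell, Tex15, which acts in meiosis and in the silencing of transposons in male germ cells and has a site in its body, stood at 23.0 and 20.6 CPM in the controls and 14.9 and 15.5 with morphine, a log2 change of -0.52 ± 0.08 (SE; edgeR adjusted p = 0.0198). Pcm1, beside the strongest site of chromosome 8, was at 323 and 310 CPM and at 250 and 280 with morphine (log2 change -0.26 ± 0.06, adjusted p = 0.0476). Neither pair of conditions overlapped. On chromosome 11 Taok1, a stress-activated kinase, was at 148 and 129 CPM in the controls and 101 and 116 with morphine, and Tug1, a long noncoding RNA whose locus carries 2 gene names, at 138 and 125 and at 101 and 113. Their log2 changes were -0.35 ± 0.08 and -0.30 ± 0.07 (adjusted p = 0.0475 and 0.0496). Morphine replicate 1 was the lower of the morphine libraries in Pcm1, Taok1 and Tug1. With trends in length and GC content removed the log2 changes were -0.28 for Tex15, -0.01 for Pcm1, -0.15 for Taok1 and -0.11 for Tug1, and none of these 4 was called.

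The remaining calls were loci whose counts are hard to place. AK035187 names a locus on chromosome 8 that carries 5 gene names, and it was at 9.54 and 10.4 CPM in the controls and 6.21 and 6.86 with morphine (log2 change -0.61 ± 0.11, SE; edgeR adjusted p = 0.0324). MSTRG.15833, the unnamed locus of 351 bases inside the strong site near 15.5 Mb of chromosome 8, was at 249 and 117 CPM in the controls and 91.6 and 80.5 with morphine (log2 change -1.08 ± 0.24, adjusted p = 0.0481). Control replicate 1 alone was high in it, and control replicate 2 lay nearer to the morphine libraries. Without control replicate 1 the log2 change of MSTRG.15833 was -0.44 and without control replicate 2 it was -1.52. It was not called by DESeq2, with trends in length and GC content removed, or without either morphine library. In these settings the log2 change of MSTRG.15833 was -1.08, -1.18, -1.18 (without morphine replicate 1) and -0.99 (without morphine replicate 2). Of the 8 calls at sites, 4 were also made by DESeq2, which gave no adjusted p for Tex15 and AK035187.

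Developmental regulators, the classical targets of Polycomb repression, were looked up on both chromosomes. Of 13 on chromosome 8, 8 were tested and 1 rose: Klf2, a Krüppel-like factor of the naive pluripotency network, from 149 and 143 CPM to 188 and 179 (log2 change 0.33 ± 0.05, SE; edgeR adjusted p = 0.0151), 198929 bp from the nearest site. Of all tested loci 1.52% were called. Nkx6-3 had an unadjusted p under 0.05 (edgeR, log2 change 0.24), as had 229 of the 1137 tested loci of the chromosome. With trends in length and GC content removed the log2 change of Klf2 was 0.14, and it was not called then or without morphine replicate 1. Hand2, a heart and limb factor, had a site 45333 bp away and Zfpm1, a cofactor of GATA factors, 47651 bp away, so 2 of 13 had a site within 50 kb, where 28.9% of all named loci of the chromosome did. Of 30 regulators on chromosome 11, 15 were tested and 0 were called (edgeR), with 1, Otx1, at an unadjusted p under 0.05. Such a p was had by 378 of the 1636 tested loci of that chromosome. Regulators with a site within 50 kb numbered 8 of 30, against 34.5% of all named loci. They included Hoxb13, Sox9, Ebf1, Wnt3a, Wnt9a, Fgf18 and Foxj1. The nearest site to the genes from Hoxb1 to Hoxb9, which pattern the body axis, was 120821 to 172617 bp away.

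A site in the body of Fgf18, a growth factor of skeleton and lung, was among the stronger ones. It lies at chr11:33119979-33125369, scored 288.9, 269.8, 299.9 and 236.9, and had a lowest percentile of 93.7. The conditions overlapped. Fgf18 RNA was at 1.31 and 1.63 CPM in the controls and 1.27 and 1.63 with morphine.

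Of the Polycomb genes, Suz12, Cbx2 and Cbx8 lie on chromosome 11. Of the 8 on the list 0 changed at an adjusted p of 0.05 (edgeR), with Ezh2 and Suz12 at an unadjusted p under 0.05. Of the 1636 tested loci of chromosome 11, 378 had such an unadjusted p. Suz12, the core subunit needed for the activity of the complex, was at 491 and 463 CPM in the controls and 399 and 445 with morphine, a log2 change of -0.18 ± 0.06 (SE, adjusted p = 0.107). Both morphine values were below both controls. The nearest distal site was 17333 bp from its 5′ end, at chr11:79971851-79975773, and its peak was 2091, 3699, 3576 and 3905 bp wide, so the conditions overlap. Cbx2 and Cbx8, chromodomain subunits of Polycomb repressive complex 1, had log2 changes of 0.02 and 0.00 and their nearest sites 185896 and 168004 bp away.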

How the data were processed

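ChIP-Seq of H3K27me3 and RNA-Seq were analysed in 4 libraries each. The authors aligned the ChIP-Seq reads to mm10 with Bowtie2 (2.3.5.1 in the submitters' processing notes). MACS then gave a peak list for every library, at a p-value of 1e-05. In the deposited lists the score is 10 times the negative log10 of that p-value. The control library given to the caller is not given in the sources used here. The deposited RNA-Seq values are raw counts of reads per locus, for which the submitters' processing notes name HISAT2 (2.1.0), StringTie (1.3.6) and featureCounts (1.6.4).

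Peaks touching or overlapping were merged, and distances were measured to the 5′ ends of 40846 named loci. Base content was read from GRCm38, whose coordinates are those of mm10. After filterByExpr and TMM scaling the conditions were compared with the quasi-likelihood test of edgeR (4.0.16, in R 4.3.3), with Benjamini-Hochberg adjustment over 20350 loci and an adjusted p of 0.05. DESeq2 (1.42.0), other filters and limits, a replicate block and leaving out each library were alternatives. Levels are log2 CPM per kb with a prior count of 2. Intervals and permutation tests were computed with scipy. The steps were tested on simulated data.

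The members and lists were chosen with earlier results of these data known. Genes named were those at the 5 widest and 5 strongest sites of each chromosome, the 5 with the most sites, up to 5 called rises and 5 falls at sites per chromosome, and listed developmental, Polycomb and marker genes. The study calls the ChIP-Seq libraries biological replicates and the RNA samples duplicates, without saying whether the RNA came from separate cultures, so its p-values measure the spread between these libraries, which may be technical. Counts within a condition differed by more than counting error. Loci that overlap or have near-identical copies are uncertain. Kdm6b was chosen after its values were seen. Some listed genes are not reported here.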

Additional observations from a re-analysis of the deposited data

How the results depend on the processing

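With peaks of a score of at least 100, 171 sites remained, and their density was 1.83 times that of the other autosomes on chromosome 8 and 2.43 times on chromosome 11, the width gap 0.11, the percentile difference -1.43 and the share touching a named locus 39.2%. The width difference between morphine and control was then 0.050 and that of the share of peaks -0.28. Per named locus the ratio was 2.37 on chromosome 8 and 2.24 on chromosome 11. The width gap was 0.16 with 50% of each site covered in every library, 0.17 away from GENCODE start sites as well (chosen after seeing the data), and 0.15 to 0.16 with 1 library left out. The width difference between morphine and control was 0.012 relative to the other autosomes and -0.12 to 0.050 with 1 library left out.

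The RNA level of chromosome 8 relative to the others was 0.34 for loci of at least 1 CPM per kb, 0.80 with no filter, 0.36 without division by length, 0.31 by means and 0.57 for named loci. That of chromosome 11 was 0.69 with no filter, 0.48 without division by length, 0.41 by means and 0.52 for named loci. Called loci on chromosome 8, on chromosome 11 and at sites numbered 94, 152 and 38 with no filter (5.44% of all loci), 7, 9 and 3 with length and GC trends removed (0.393%), 40, 64 and 17 by DESeq2 (8.27% of 7330 with an adjusted p), 1, 3 and 0 at an FDR of 0.01 (edgeR), and 1 to 89, 1 to 148 and 0 to 39 with 1 library left out. At sites there were 3 by overlap alone and 14 within 50 kb. The median log2 change was -0.0019 on chromosome 8, 0.0063 on chromosome 11 and -0.00054 at sites with trends removed, and 0.011 at sites with no filter. With 1 library left out it was 0.014 to 0.030, 0.022 to 0.045 and -0.00049 to 0.017. The cause of these shifts was not tested.

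For RNA the replicates were taken to share only a number, since the correlation over loci of the replicate differences of both conditions was 0.026. For ChIP-Seq the pairing was not tested, and replicate 2 had more peaks, and wider ones at the sites, in both conditions. With the replicate number as a block, 55, 100 and 26 loci were called (5.54% of all loci), and the width difference was -0.02 between the libraries numbered 1 and -0.04 between those numbered 2.

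The difference in GC content, -0.22 points, was 0.30 with scores of at least 100, 0.17 with equal numbers of peaks and 0.17 away from GENCODE start sites. The number of sites was 685 to 932 with 1 library left out. Of the checks of named genes 58 kept the call and 23 lost it, 9 of them without morphine replicate 1. Counted among the lost calls are Tex15 and AK035187 under DESeq2, which gave them no adjusted p, with log2 changes of -0.52 and -0.61. The peak lists give no read depth per library, and 2 libraries per condition limit every comparison with morphine.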
